A study of Mus musculus with 6 samples.

Results

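Transcription factors and growth response genes that cells switch on within minutes of a stimulus, and relatives of these, were followed here through 10 named genes. They are the Fos family (Fos, Fosb, Fosl1 and Fosl2), the Jun family (Jun, Junb and Jund), Egr1, Ier3 and Myc. Every non-control probe carrying one of these gene names was taken, with no selection on its values, which gave 15 of the 41174 probes and 10 of the 29742 gene names on the array. The spelling in the list matched 9 of the genes, and Jund was found under its former name Jund1. Fosb, Fosl2 and Junb had 2 probes each, Myc had 3 and each other gene had 1.

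Primary embryonic fibroblasts of the mouse, the adherent connective tissue cells that grow out of minced embryos, were profiled on 6 two-colour Agilent arrays. The wild type cells and the WrnΔhel/Δhel cells (WS in the sample labels) came from embryos of day 15 by the labels. The mutant cells lack part of the helicase domain of Wrn, the mouse counterpart of the gene mutated in Werner syndrome, in every cell of the animal and with no inducible control. Treated cells received 0.5 mM H2O2 for 1 hour and then fresh medium, and RNA was taken 24 hours later. Each of 3 comparisons had 2 arrays with separate biological replicates: treated against untreated wild type cells (replicates 1 and 2), treated against untreated mutant cells (replicates 1 and 2), and mutant against wild type cells, both untreated (replicates 3 and 4). The labels do not say whether replicates came from separate embryos or litters, so p-values measure the spread between these RNA samples. The mice were of a mixed genetic background by the study's methods, and embryo, litter and genotype cannot be told apart with so few cultures.

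Fos and Jun proteins pair through leucine zippers to form AP-1, a factor that binds DNA in the control regions of genes for growth, matrix turnover and stress. Fos, Fosb, Jun, Junb, Egr1 and Myc are immediate early genes. Growth factors and oxidants induce them through MAP kinases within minutes to hours, without new protein synthesis, and the RNAs decay quickly. In fibroblasts the induction by serum is the classical example. RNA taken a day after a short pulse of peroxide thus shows the later state of these genes and not the first burst. This description is not meant for Fosl1, Fosl2 and Jund, which are here as members of the Fos and Jun families.

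RefSeq promoters on the build GRCm38.p6 were at hand for 7 of the 10 genes: Fos, Fosb, Fosl2, Jun, Junb, Jund and Ier3. The 250 bases before the start site are shown for Fosl2 and Jund, because these genes differed in opposite directions between untreated mutant and wild type cells, and for Jun, which carries a known control element of its own gene. Each runs 5′ to 3′ in the direction of the gene, and capitals mark matches to the motifs searched.
Fosl2, chr5:32136222-32136471, plus strand: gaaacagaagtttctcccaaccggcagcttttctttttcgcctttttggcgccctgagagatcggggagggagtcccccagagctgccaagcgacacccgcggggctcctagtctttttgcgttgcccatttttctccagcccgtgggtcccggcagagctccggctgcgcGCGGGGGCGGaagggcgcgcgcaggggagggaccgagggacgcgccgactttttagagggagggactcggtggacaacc
Jund, chr8:70697489-70697738, plus strand: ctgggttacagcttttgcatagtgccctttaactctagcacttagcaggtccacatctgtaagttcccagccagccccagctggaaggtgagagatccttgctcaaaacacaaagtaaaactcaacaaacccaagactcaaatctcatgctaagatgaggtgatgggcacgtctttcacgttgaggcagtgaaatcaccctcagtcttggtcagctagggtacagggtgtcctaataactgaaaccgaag
Jun, chr4:95052223-95052472, minus strand: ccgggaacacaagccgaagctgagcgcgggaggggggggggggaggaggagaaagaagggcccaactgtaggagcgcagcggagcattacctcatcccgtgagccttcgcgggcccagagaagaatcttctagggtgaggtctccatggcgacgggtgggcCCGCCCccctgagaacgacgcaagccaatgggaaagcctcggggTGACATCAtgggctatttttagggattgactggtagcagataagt

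Motifs were searched on both strands as TGANTCA (the AP-1 site), TGACNTCA (the related CRE-type site), CACGTG (the E-box, which Myc and its partners bind), GCGNGGGCG (the Egr site), GGGCGG (the GC box) and the CArG box by name. The window of Jun held 1 CRE-type site at position -45 from the start site, and 7.49% of the 32851 promoters in the table held such a site. The Egr site occurred once in the window of Fosl2, at position -79, and once in that of Fosb, at position -50, against 4.7% of all promoters. Both matches overlap a GC box, which 32.7% of all promoters held. In the Jund and Junb windows, no match to any of the 6 motifs was found. No member's window held the AP-1 site, the E-box or the CArG box, found in 6.75%, 6.02% and 1.47% of all promoters.

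Ratios were Cy5 over Cy3 on a log2 scale, after subtraction of the local background and loess normalization within each array. On all 4 treatment arrays the treated cells carried Cy5, and no dyes were exchanged, so a probe's preference for one dye enters its ratio. The 2 arrays of untreated cells have no settled direction from the labels: these put wild type RNA in Cy5, whereas the study's own list of genes puts mutant RNA there. The study's direction is used below, so a value above 0 means a higher level in mutant cells. Every sign of that comparison turns if the labels are right. The fits with a dye term also take the study's direction, so their values for the responses to peroxide depend on it too. Those fits were not run in the direction of the labels. In the Cy3 channels of the treatment arrays, whose direction is not in doubt, the untreated mutant minus wild type difference correlated with these 2 arrays at r = 0.72 across 17735 probes, and 97.1% of the 2737 probes called with a change over 2-fold had the same sign. Cy3 was well above background on 75.8% to 90% and Cy5 on 41.5% to 69.2% of the non-control spots. The scanner software marked 0.4% to 22.6% of an array's spots as outliers, the most on wild type replicate 2, and these were left out. This removed 5 of the 15 member probes on wild type replicate 2, 3 on mutant replicate 2 and 1 on replicate 4 of the untreated arrays, and for these the value with the marked spot kept is given and named. Of 12 fibroblast markers, 11 were well above background in both dyes on all 6 arrays, against 4 of 10 for skeletal muscle, 3 of 9 for macrophages, 1 of 8 for epithelium, 1 of 9 for mast cells and 0 of 8 for endothelium. Between untreated mutant and wild type cells, 6 of 10 tested fibroblast markers were called higher and 0 lower (median log2 ratio 0.97). Of all gene names, 1 probe each, 10.9% were called higher and 8.59% lower. Markers of other cell types were called too: the mast cell protease genes Mcpt8 (-4.84) and Mcpt4 (-0.99) of 9 tested, the epithelial genes Krt18 (-1.45) and Cldn4 (-1.31) of 8, the macrophage gene Mrc1 (1.58) of 9, the muscle genes Myf6 (0.64) and Myh8 (-0.89) of 10, and 0 of 8 endothelial genes. These are 22.2%, 25%, 11.1%, 20% and 0% of the lists, against 19.4% of all gene names. Mrc1 was well above background on 2 arrays in Cy3 and 1 in Cy5, and Myf6 on 2 in Cy5, so their sizes are uncertain. The part of these markers in the results below was not tested. The 4 Wrn probes did not separate the genotypes in 1 direction, with log2 ratios of 0.36, -0.91, -0.01 and 0.38 in mutant against wild type cells, of which the second was called (limma adjusted p = 0.0114). They check the labels only weakly, since the deletion leaves most of the transcript and the place of each probe was not examined.

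Between untreated mutant and untreated wild type cells, 4 of the 10 genes passed limma's test at an adjusted p under 0.05, where 24.0% of all gene names did (19.9% of probes). Myc, Fosl1 and Fosl2 were lower in mutant cells and Jund was higher, against 12.0% of gene names with a probe lower and 12.5% with a probe higher. After peroxide, 0 of the 10 genes passed in wild type cells (0.361% of gene names and 0.271% of probes did) and 0 of 10 in mutant cells (0% of gene names), in the fit of all 6 arrays. At an unadjusted p under 0.05, 5 of the 15 probes passed in treated wild type cells (20.0% of all probes), 3 in treated mutant cells (12.0%) and 9 in untreated mutant cells (36.1%). The median log2 ratio over the 15 probes was 0.12 in treated wild type cells, 0.01 in treated mutant cells and -0.69 in untreated mutant cells, while the median over all probes lay between -0.01 and 0.01. With each array centred on its median in place of loess, these member medians were 0.60, 0.75 and -0.07, the medians of all probes lay between -0.04 and -0.01, and Jund was the 1 member called in untreated cells (10.8% of all probes). The same change moved the share of calls that were higher in untreated mutant cells from 50.2% to 60.7%. In RNA from whole cultures, fewer cells of a kind and less RNA per cell cannot be told apart.

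**Figure D1:**
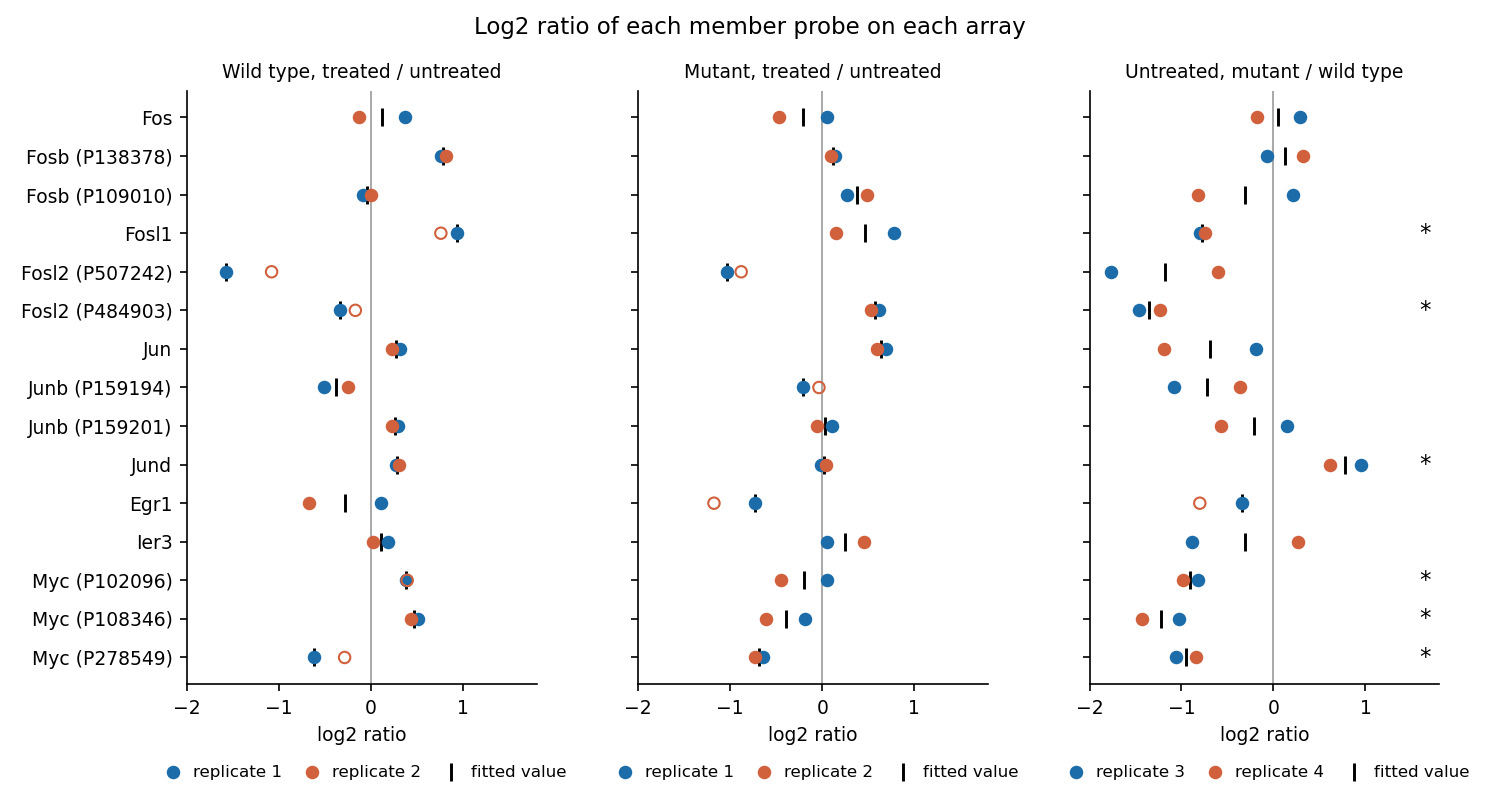
Log2 ratio (x axis) of each of the 15 member probes (y axis, with the end of the probe name where a gene has several) on the 2 arrays of each comparison; open circles are marked spots, black ticks the fitted values from the remaining spots, and asterisks a limma adjusted p under 0.05. The 3 Myc probes lie left of 0 on both arrays of untreated mutant over wild type cells, at -0.82 to -1.43, and Jund lies right of 0 at 0.95 and 0.61.

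The count of 0 after peroxide depended on the 2 arrays of untreated cells, which supply part of the pooled error. Without replicate 3, and likewise without replicate 4, limma called 3 of the 10 genes in treated wild type cells (Fosb, Fosl1 and Myc, with 22.5% of all probes called) and 3 in treated mutant cells (Fosl2, Jun and Myc, with 9.77% of probes called). Called this way in wild type cells, Fosb and Fosl1 were higher, and 1 Myc probe was higher (0.47) and another lower (-0.62). The values of Fosl1 and of the lower Myc probe rest on 1 wild type array, which is assumed to vary like the others. In mutant cells Jun and Fosl2 probe A_52_P484903 (0.58) were higher and 1 Myc probe lower (-0.69). The other Fosl2 probe had 1 unmarked array in each treatment comparison, so this setting gave it a value and no test. For untreated cells the count was 7 of 10 without replicate 3 (43.5% of all probes called) and 6 without replicate 4 (27.9%). It was 3 (Fosl2, Jund and Myc) without either wild type treatment array (12.9%) and 2 (Fosl2 and Myc) without either mutant treatment array (9.3%).

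Fos itself was near the limit of detection. Its probe A_52_P262219 was not well above background in Cy5 on 5 of the 6 arrays and in Cy3 on 1. The log2 ratios were 0.37 and -0.13 in treated wild type cells, 0.05 and -0.47 in treated mutant cells and 0.28 and -0.18 in untreated mutant cells, so the sign differed between the 2 arrays of every comparison. Cy5 was above background only on wild type replicate 1, so in treated mutant cells and in the untreated mutant cells the Cy5 signal is a bound, and no fold is given.

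Fosb encodes a Fos relative whose truncated form accumulates after repeated stimulation, and its 2 probes behaved differently. Probe A_51_P138378 had log2 ratios of 0.76 and 0.81 in treated wild type cells, 0.14 and 0.10 in treated mutant cells and -0.07 and 0.33 in untreated mutant cells. Both wild type treatment arrays lay above every other array, and the share of all probes with such an order was not counted. The fitted value in treated wild type cells was 0.79 (SE 0.17, a 1.72-fold difference), with an adjusted p of 0.07 by limma, and in treated mutant cells it was 0.12 (SE 0.17, adjusted p = 0.832). The Cy5 signal of this probe was not well above background on mutant replicate 2. Taking the direction of the study's list, untreated mutant cells were measured in both dyes, on different arrays, and there its Cy5 level exceeded its Cy3 level by a log2 ratio of 0.67. In the direction of the labels it is untreated wild type cells that were measured in both dyes, and the same ratio is then 0.33. The part of dye in the wild type value was not tested by a swap. A fit of the separate channels with a dye term, in the study's direction and with marked spots kept, put the wild type response at 0.16 (SE 0.41). Probe A_52_P109010 had log2 ratios of -0.09 and just below 0 in treated wild type cells, 0.27 and 0.49 in treated mutant cells and 0.21 and -0.82 in untreated mutant cells. Its fitted values were -0.05, 0.38 and -0.30, with limma adjusted p-values of 0.95, 0.586 and 0.413.

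Fosl1 encodes Fra-1, a Fos protein without the strong activation domain of Fos that stays up longer in growing and migrating cells. Its probe A_51_P308796 had log2 ratios of -0.79 and -0.75 in untreated mutant against wild type cells, the tightest pair among the called members. The fitted value of -0.77 (SE 0.20, limma adjusted p = 0.0478) lay just inside the threshold, and normexp background correction moved it outside (adjusted p = 0.0551). After peroxide the log2 ratio was 0.94 on wild type replicate 1 and 0.76 on replicate 2 with its marked spot kept, against 0.78 and 0.15 in mutant cells. All 4 values were above 0, but neither fitted value, 0.94 (SE 0.29, 1 array, adjusted p = 0.155) nor 0.47 (SE 0.20, adjusted p = 0.442), passed limma's test.

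Fosl2 encodes Fra-2, another Fos protein without that domain. Probe A_52_P484903 had log2 ratios of -1.46 and -1.24 in untreated mutant against wild type cells. It was lower in mutant cells by the largest fold among the called members, with a fitted value of -1.35 (SE 0.17, 2.55-fold, limma adjusted p = 0.00561). The other probe, A_51_P507242, had -1.77 and -0.60, and its fitted value of -1.18 (SE 0.31) had an adjusted p of 0.0595. The probes did not run together after peroxide. Probe A_52_P484903 had 0.62 and 0.53 in treated mutant cells, against -0.34 on wild type replicate 1 and -0.17 on replicate 2 with its marked spot kept. Probe A_51_P507242 was below 0 everywhere, at -1.57 and, marked spot kept, -1.08 in wild type cells, and at -1.04 and, marked spot kept, -0.88 in mutant cells. Both probes gave less Cy5 than Cy3 signal for the same kind of cell, by log2 ratios of -1.03 for A_51_P507242 and -0.53 for A_52_P484903 (untreated mutant cells, the direction of the study's list) or of -1.94 and -1.15 (untreated wild type cells, the direction of the labels). With a dye term and marked spots kept, the untreated difference of A_52_P484903 was -0.71 (SE 0.28, limma adjusted p = 0.223).

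Jun encodes c-Jun, the founding partner of AP-1, which can activate its own gene. Its probe A_51_P325914 had log2 ratios of 0.32 and 0.23 in treated wild type cells and of 0.69 and 0.60 in treated mutant cells. All 4 treatment arrays were above 0 and both mutant arrays above both wild type arrays, an order not counted over all probes. The fitted values of 0.27 (SE 0.24) and 0.64 (SE 0.24) had limma adjusted p-values of 0.595 and 0.373. A fit of the separate channels with a dye term was made in the study's direction only. It put the response at -0.34 (SE 0.42) in wild type and 0.02 (SE 0.35) in mutant cells. With marked spots kept these were -0.29 and 0.12. In untreated mutant against wild type cells the log2 ratios were -0.19 and -1.19, with a fitted value of -0.69 (SE 0.24, limma adjusted p = 0.0882). The Cy5 level of this probe was above its Cy3 level by a log2 ratio of 0.59 in untreated mutant cells if the study's direction holds, and the same ratio was -0.51 in untreated wild type cells if that of the labels does. With a dye term the untreated difference was -1.31 (SE 0.32), called by limma at an adjusted p of 0.045, and -1.18 (SE 0.36, adjusted p = 0.122) once marked spots were kept.

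Junb and Jund encode the other Jun proteins, which are weaker activators than c-Jun and often oppose its growth-promoting role. Junb probe A_51_P159194 had log2 ratios of -0.51 and -0.25 in treated wild type cells, -0.21 and, marked spot kept, -0.04 in treated mutant cells, and -1.08 and -0.36 in untreated mutant cells. Probe A_51_P159201 had 0.29 and 0.22, then 0.11 and -0.06, then 0.14 and -0.58 in the same order. The probes disagreed in sign in both treatment comparisons, and none of the 6 fitted values was called (limma adjusted p from 0.0719 to 0.977).

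Jund, probe A_51_P357744, was the one member called higher in untreated mutant cells. Its log2 ratios there were 0.95 and 0.61, with a fitted value of 0.78 (SE 0.16, 1.72-fold, limma adjusted p = 0.018). In treated cells the ratios were 0.27 and 0.31 for wild type and -0.01 and 0.04 for mutant cells, with fitted values of 0.29 (SE 0.16, limma adjusted p = 0.381) and 0.01 (SE 0.16, adjusted p = 0.985). The Cy5 level exceeded the Cy3 level by a log2 ratio of 0.69 in untreated mutant cells in the direction of the study's list, and by 1.28 in untreated wild type cells in that of the labels. With a dye term and marked spots kept the untreated difference was 0.37 (SE 0.33, limma adjusted p = 0.589). The same fit put the response to peroxide at -0.23 (SE 0.42) in wild type and -0.46 (SE 0.35) in mutant cells.

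Egr1 encodes a zinc finger factor induced by growth factors and oxidants, and Ier3 a short-lived protein that acts on survival signalling. For Egr1, probe A_51_P367866, the log2 ratios were 0.11 and -0.68 in treated wild type cells. They were -0.73 and, marked spot kept, -1.18 in treated mutant cells, and -0.34 and, marked spot kept, -0.80 in untreated mutant cells. The wild type arrays lay on both sides of 0 and the other 4 values below it, and the fitted values of -0.28 (SE 0.25), -0.73 (SE 0.35) and -0.34 (SE 0.35) were not called (limma adjusted p of 0.603, 0.484 and 0.526). For Ier3, probe A_51_P286488, the log2 ratios were 0.19 and 0.02, then 0.05 and 0.45, then -0.89 and 0.27 in the same order of comparisons. The mutant arrays of the untreated comparison lay on both sides of 0. The fitted values were 0.10, 0.25 and -0.31 (SE 0.28 each), with limma adjusted p-values of 0.887, 0.772 and 0.458.

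Myc, the E-box binding factor that drives ribosome production and growth, was lower in untreated mutant cells by each of its 3 probes. Probe A_52_P108346 had log2 ratios of -1.02 and -1.43, probe A_51_P102096 had -0.82 and -0.98, and probe A_52_P278549 had -1.06 and -0.84. All 6 values were below 0, and all 3 probes were called, with fitted values of -1.23 (SE 0.18, limma adjusted p = 0.00681), -0.90 (SE 0.19, adjusted p = 0.0254) and -0.95 (SE 0.17, adjusted p = 0.0147). These are 2.34-fold, 1.87-fold and 1.93-fold lower levels in mutant cells. The 3 probes read the same transcript and the same 4 RNA samples, so they are no independent replicates of the comparison. With a dye term and marked spots kept, the differences in the same order of probes were -1.29, -1.13 and -0.47, and none was called (limma adjusted p of 0.0601, 0.0567 and 0.531).

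After peroxide the Myc probes differed from one another. Probe A_52_P108346 had 0.51 and 0.44 in wild type cells against -0.19 and -0.61 in mutant cells. Probe A_51_P102096 had 0.38 and, marked spot kept, 0.39 in wild type cells, against 0.05 and -0.45 in mutant cells. Probe A_52_P278549 was below 0 in both, at -0.62 and, marked spot kept, -0.29, and at -0.65 and -0.73. None of the 6 fitted values was called, the smallest limma adjusted p being 0.217 in wild type and 0.275 in mutant cells. The log2 ratio of Cy5 over Cy3 within untreated mutant cells, in the direction of the study's list, was -0.66 for A_52_P278549, 0.41 for A_51_P102096 and 0.25 for A_52_P108346. In the direction of the labels, within untreated wild type cells, it was -1.33, -0.56 and -0.87.

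**Figure D2:**
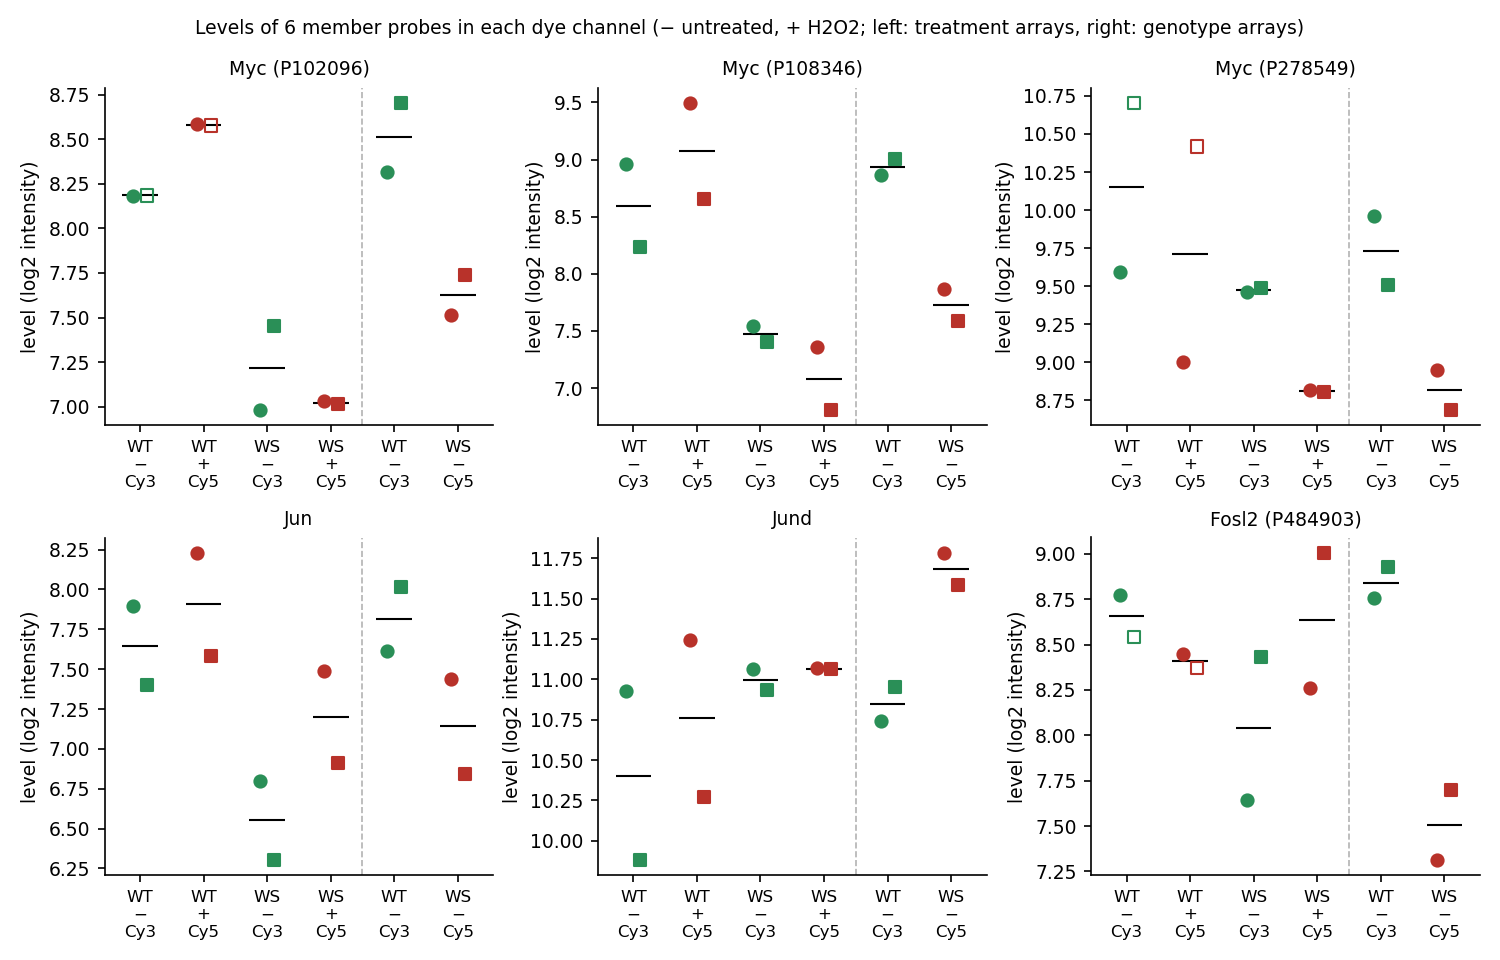
Level (log2 intensity of 1 dye after loess and quantile scaling of the mean intensities; the vertical axes do not start at 0 and differ between panels) of 3 Myc probes, Jun, Jund and 1 Fosl2 probe in wild type (WT) and mutant (WS) cells, untreated or treated. Circles are replicate 1 or 3, squares replicate 2 or 4, open symbols marked spots and lines the means. For all 3 Myc probes both mutant replicates lie below both wild type replicates within each dye of the treatment arrays, an order not counted over all probes.

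The treatment arrays also hold a comparison of genotypes within each dye, free of the unsettled direction. In Cy3, untreated wild type cells had levels of 8.96 and 8.23 for Myc probe A_52_P108346 (log2 intensity) and untreated mutant cells 7.55 and 7.40. The difference was -1.12 (SE 0.41), and for A_51_P102096 and A_52_P278549 it was -0.97 and -0.67. In Cy5, treated wild type cells had levels of 9.4963 and 8.65 for A_52_P108346 and treated mutant cells 7.36 and 6.81, giving a difference of -1.99 (SE 0.47), with -1.56 and -0.90 for the other probes. For every Myc probe in both dyes the mutant replicates lay below the wild type replicates. How many of all probes lay apart in this way, here and below, was not counted, and the order is a description. Limma called none of these Myc differences with marked spots kept (smallest adjusted p 0.176, background 0.788% of probes in Cy3 and 0.318% in Cy5). With marked spots left out it called A_52_P108346 in treated cells (adjusted p = 0.00459, background 1.74% of probes), and the differences of A_52_P278549 shrank to -0.12 in Cy3 and -0.19 in Cy5. Untreated levels in Cy3 were also apart for Jun, at 7.89 and 7.40 against 6.80 and 6.30 (difference -1.10, SE 0.40, limma adjusted p = 0.276), and, barely, for Jund, at 10.93 and 9.88 against 11.06 and 10.93 (difference 0.59, SE 0.43, adjusted p = 0.567). With marked spots kept, the wild type levels of Fosl2 also lay above the mutant levels, at 11.25 and 12.98 against 11.19 and 11.23 for A_51_P507242 (difference -0.91) and at 8.77 and 8.54 against 7.64 and 8.43 for A_52_P484903 (difference -0.62). For A_51_P507242 the values 12.98 and 11.23 came from marked spots, and without them no difference was fitted. For A_52_P484903 the value 8.54 came from a marked spot, and without it the difference was -0.73. The wild type levels of Egr1 lay above the mutant levels too, at 7.94 and 7.96 against 7.18 and 7.90 (difference -0.41). The 7.90 came from a marked spot, and without it the difference was -0.77. None of these 3 probes of Fosl2 and Egr1 was called. Fosl1 overlapped with marked spots kept, with 9.57 and 8.67 in wild type against 8.68 and 8.78 in mutant cells, a difference of -0.40 (SE 0.42). The 8.67 came from a marked spot, and without it the levels did not overlap and the difference was -0.85.

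**Figure D3:**
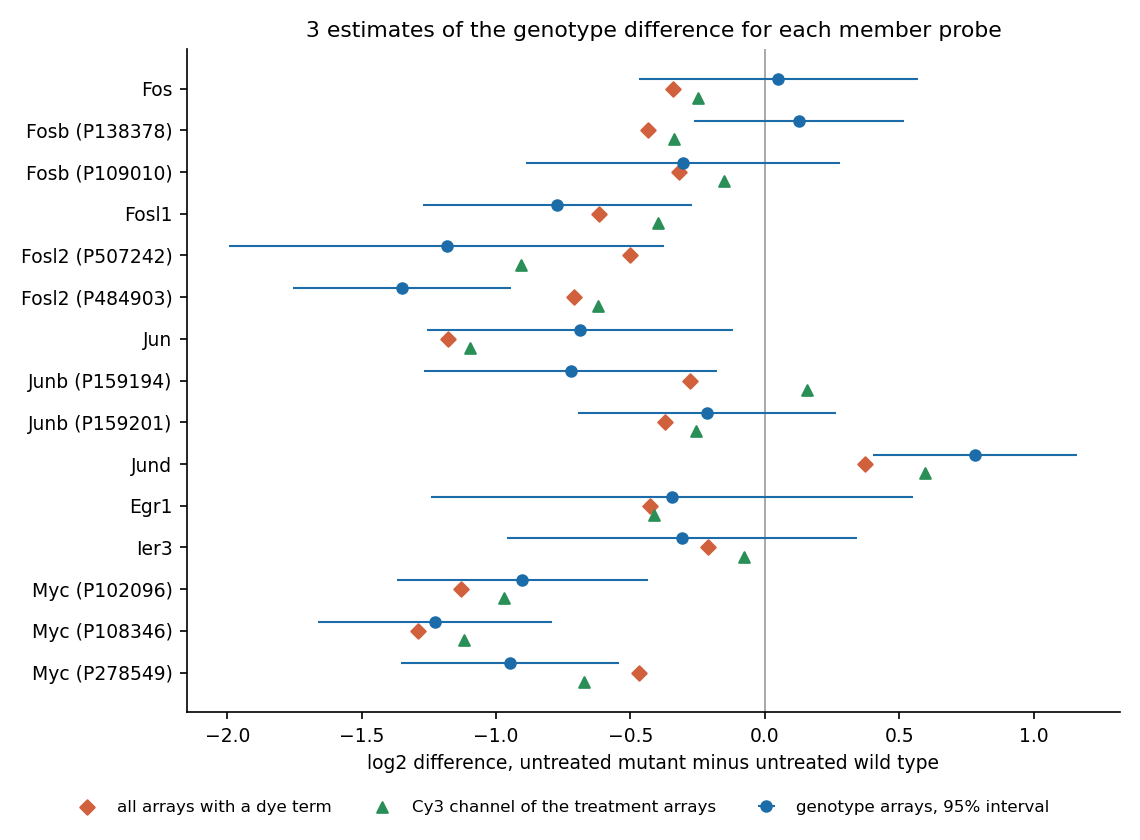
Log2 difference of untreated mutant minus untreated wild type cells (x axis) for each member probe by 3 estimates: the genotype arrays in the direction of the study's list with 95% limma intervals, a fit of all channels with a dye term, and the Cy3 channels of the treatment arrays (the last 2 with marked spots kept). The 3 estimates differ in sign for Fos, for Fosb probe A_51_P138378 and for Junb probe A_51_P159194, and share a sign for every other probe, called or not. The dye-term fit takes the same direction and uses the channels of the other 2 estimates, so the 3 are not independent.

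Whether the response to peroxide differed between genotypes was tested as mutant minus wild type response. Limma called 0 of the 10 genes, as it called 0% of all probes, and 3 of the 15 probes had an unadjusted p under 0.05 (5.94% of all probes). Myc probe A_52_P108346 had a difference of -0.87 (SE 0.26, interval -1.49 to -0.26, limma adjusted p = 0.733). For Fosl2 probe A_52_P484903 it was 0.92 (SE 0.29, on 3 arrays, limma adjusted p = 0.787), and for Fosb probe A_51_P138378 it was -0.67 (SE 0.23, interval -1.22 to -0.12, limma adjusted p = 0.807). The other probe of Fosb differed in the opposite direction, at 0.43, and the third Myc probe by -0.07. A constant dye preference of a probe cancels in this difference, because treated cells carried Cy5 in both genotypes.

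The genes around the members were read from lists of AP-1 partners, kinases and targets, 1 probe a gene. In treated wild type cells limma called 1 of 27 AP-1 target genes, Prl2c3, a proliferin of the prolactin family, with log2 ratios of 3.32 and 2.68 (fitted 3.0, SE 0.25, adjusted p = 0.0242), where 0.279% of all gene names were called by this rule. In treated mutant cells its log2 ratios were 2.50 and 1.88 (fitted 2.19, limma adjusted p = 0.153), not called. In wild type cells limma called 0 of 40 other immediate early genes, 0 of 17 dimer partners, 0 of 35 MAP kinases and ternary complex factors, 0 of 16 Egr1 corepressors and targets, 0 of 10 Myc network genes and 0 of 22 Myc targets. At an unadjusted p under 0.05, 9 of the 40 other immediate early genes were above 0 and 2 below, against 10.8% and 9.28% of all gene names. The lowest p in each direction belonged to Nfil3 (0.79, limma adjusted p = 0.0657) and Egr2 (-0.44, limma adjusted p = 0.163). In treated mutant cells limma called no gene of any list. The lowest p in each direction were those of Egr3 (0.89, limma adjusted p = 0.252) and Ier2 (-1.02, limma adjusted p = 0.258) among the immediate early genes. Among dimer partners they were those of Nfe2l2 (0.90, limma adjusted p = 0.242) and Atf5 (-1.88, limma adjusted p = 0.153), and among AP-1 targets those of Spp1, which encodes osteopontin (2.01, limma adjusted p = 0.153), and Mt2 (-0.48, limma adjusted p = 0.36).

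Between untreated mutant and wild type cells, 15 of 42 other immediate early genes were called, 7 higher and 8 lower, or 35.7% against 19.4% of all gene names by the same rule (10.9% higher and 8.59% lower). The background depends on dim probes. Leaving out probes well above background in neither dye on an array of the comparison raised the share of all probes called from 19.9% to 26.3%. The lists were not counted that way. The genes named here and for the next lists are among those with values of the same sign on both arrays. The matrix and growth regulators Ctgf (-3.09) and Cyr61 (-2.01) and the stress gene Gadd45b (-1.43) were lower, and the inhibitor of NF-kB signalling Tnfaip3 (1.66), the orphan receptor gene Nr4a3 (1.24) and the RNA decay factor gene Zfp36 (1.11) were higher. Nr4a3 was dim, with a mean log2 intensity of 3.5 against 4.72 for the Fos probe, so its size is uncertain. Of 35 MAP kinases and ternary complex factors 6 were higher, among them Map2k6 (0.91), and 9 lower, among them Map2k3 (-1.48), Map2k1 (-1.40) and Mapk8, which encodes a Jun kinase (-1.29). Their median log2 ratio was -0.24, against 0.03 over all gene names. Of 17 dimer partners 3 were higher, Atf5 (2.03), Nfe2l2, which encodes NRF2 (1.31), and Jdp2 (0.63), and 2 were lower, Mafg (-1.24) and Crem (-0.78). Jdp2 and Mafg lay just inside the threshold, with limma adjusted p-values of 0.0496 and 0.0493.

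Genes known as AP-1 targets moved both ways, with 5 of 28 higher and 5 lower and a median of -0.02. The metallothionein gene Mt2 (3.54), Prl2c3 (3.23) and the chemokine gene Ccl2 (2.83) were higher, while the protease inhibitor gene Timp1 (-2.17) and the growth factor gene Fgf7 (-1.65) were lower. Of 17 Egr1 corepressors and targets 5 were higher. Igf2 (1.69), Tnfrsf1a (0.73) and Vegfa (0.68) had values on both arrays, and Nab2 (1.39) and F3 (1.28) on 1. A further 4 were lower, among them Ptges (-1.97), Fgf2 (-1.43) and Pdgfc (-0.83). Among 26 Myc target genes 0 were called higher and 5 lower, or 19.2% in all against 19.4% of all gene names, with a median of -0.41. The lower ones included the cell cycle phosphatase gene Cdc25a (-2.0), the polyamine enzyme gene Odc1 (-1.71) and the nucleolar gene Nolc1 (-1.43), all called by limma at adjusted p-values of at most 0.0121. Of 10 tested genes of the Myc network, Mxd1 was higher (0.62) and Mxi1 lower (-0.68). Both encode proteins that compete with Myc for its partner Max.

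**Figure D4:**
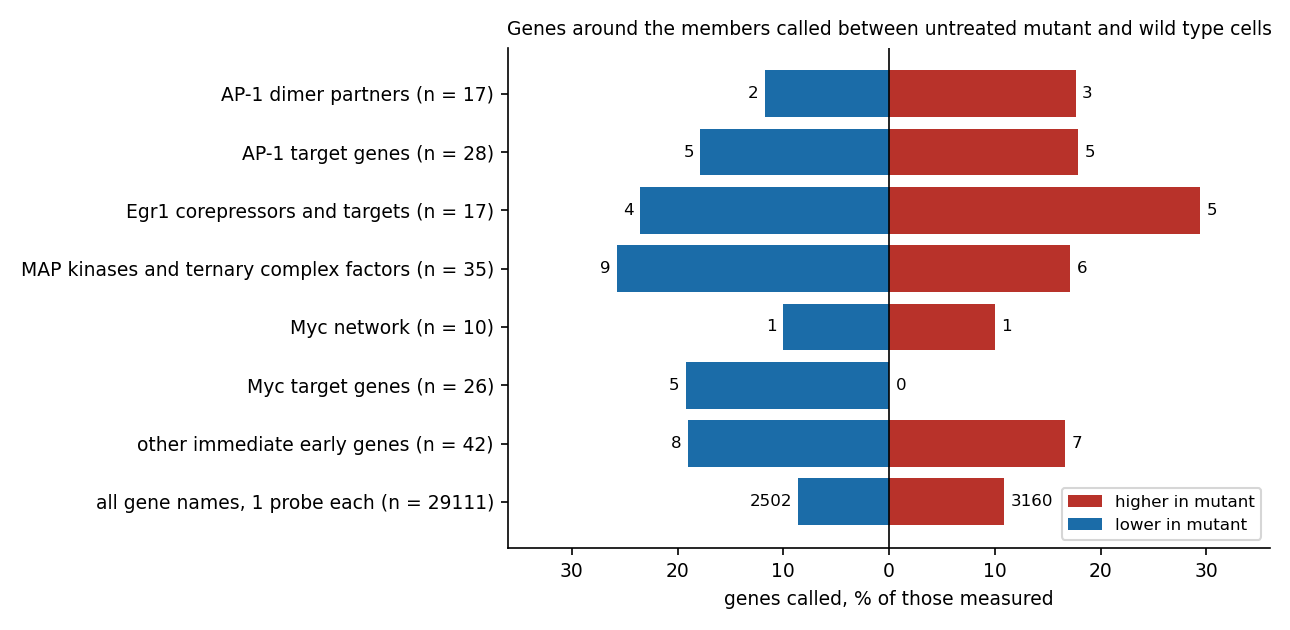
Share (x axis, % of the genes measured) of each gene list called higher or lower in untreated mutant than in untreated wild type cells at a limma adjusted p under 0.05, in the direction of the study's list, with the number of genes beside each bar. The lowest bar gives the same over 29111 gene names tested, of which 3160 were higher and 2502 lower.

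The genes whose log2 ratios over the 6 arrays were nearest to those of a member were sought among 8056 probes measured on every array, by Euclidean distance, for the 3 member probes with the widest range. For Myc probe A_52_P108346, with a range of 1.94, these were Ppid (distance 0.55), Gzme (0.61) and Tnnt2 (0.63). For Jun, with a range of 1.88, they were Vbp1 (0.17), Arl6ip6 (0.36) and Klhl2 (0.38). For Ier3, with a range of 1.34, they were BC037708 (0.23), Gc (0.36) and D130072O21Rik (0.37). The points share 6 arrays and their dyes, and the likeness is a description.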

How the data were processed

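RNA was compared on 6 two-colour Agilent whole mouse genome arrays, with 2 arrays for each of 3 comparisons. The labels give total RNA, the study's methods cytoplasmic RNA. The spot intensities of both dyes, their local backgrounds and the spot flags were deposited as the authors' Feature Extraction output (A.7.5.1 per the file headers). The deposited log10 ratios of that software and the authors' deposited log2 table, made by background subtraction and loess, were used as alternatives.

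From the mean intensities the median local background was subtracted, each array was normalized by loess, spots the scanner marked as outliers were left out, spots of 1 probe were averaged and probes were kept separate. Ratios of all 6 arrays were fitted in limma 3.58.1 (R 4.3.3) with 1 coefficient per comparison, empirical Bayes and Benjamini-Hochberg adjustment over all probes. A call is an adjusted p under 0.05, and a gene is called where 1 of its probes is. Under the alternatives, counts of genes stand beside shares of probes, an unlike measure. In the main fit of untreated cells 24.0% of gene names and 19.9% of probes were called. Where the scanner marked 1 of the 2 spots of a comparison, the value rests on 1 array, and a probe whose spots leave no residual degrees of freedom has a value but no test and is not counted as tested, a rule added after results had been seen. Levels of each dye were taken after loess and quantile scaling of the mean intensities. For the gene lists the probe of highest mean intensity stood for a gene, and the text names the called genes, or, where over 3 were called in a direction, the 3 largest among those with values of the same sign on both arrays, and, where none was called, the gene of lowest p in each direction. Nab2, F3 and the markers of other cell types were named after their values were seen. A few genes that this rule names are not reported here. The array lists Jdp2 as Jundm2, Mxd1 as Mad and Prl2c3 as Plf2. The members and lists were chosen with earlier results of these data known. Promoters were read from RefSeq with Python 3.11.15.

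On data simulated from these arrays (39807 probes, 50 changed for each size), a log2 change of 1 was called for 6% of changed probes in wild type cells, 2% in mutant cells and 4% in untreated cells, and one of 3 for 90%, 90% and 96%. Far fewer probes were changed there than the 19.9% called in the real untreated comparison, and the adjustment is stricter where fewer probes change. The simulated shares for untreated cells thus do not give the sensitivity of that comparison. The number of arrays limits the precision. Alternatives covered background, normalization, marked spots, dye, pooling of error, thresholds, direction and each array left out.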

Additional observations from a re-analysis of the deposited data

Results flagged for a closer look

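Among the 8 member probes with no marked spot on the 4 treatment arrays, 2 had responses to peroxide of opposite sign in the 2 genotypes on every array. The share of all probes with such a split was not counted. For Fosb probe A_52_P109010 both wild type arrays were below 0, at -0.09 and just under 0, and both mutant arrays above it, a difference of 0.43 (limma adjusted p = 0.94). With marked spots kept in the loess fit the second wild type value is just above 0 (0.0066), and that split does not hold. For Myc probe A_52_P108346 both wild type arrays were above 0 and both mutant arrays below it, a difference of -0.87 (limma adjusted p = 0.733). Neither difference passed the test, and the other probes of both genes did not show the same split. Fosl2 probe A_52_P484903 had below-0 values in wild type and above-0 values in mutant cells too, 1 of them with its marked spot kept.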

How the results depend on the processing

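The count of members called after peroxide in wild type cells was 0, but 2 (Fosb and Myc, with 5.57% of all probes called) with normexp background correction, 1 (Fosb, 1.51%) with the scanner's own ratios, 2 (Fosb and Myc, 24.4%) with each comparison on its own arrays and 3 (22.5%) without either untreated array. Normexp called Myc probe A_52_P278549, which was lower, and the fit on its own arrays called A_52_P108346, which was higher. These settings thus do not share a direction for Myc. In mutant cells it was 0, but 1 (Fosl2, 5.24%) with median centring and 3 (Fosl2, Jun and Myc, 10.7%) on its own arrays. In untreated cells it was 4, but 1 (Jund, 10.8%) with median centring, 1 (Fosl2, 5.64%) on its own arrays, 2 (Jun and Myc, of 8 probes with a value, 3.28%) with a dye term, 0 (2.3%) with a dye term and marked spots kept, 0 (0.788%) in the Cy3 channels of the treatment arrays and 0 (1.84%) at the study's thresholds. The fit with marked spots kept and the Cy3 comparison were chosen after seeing the data. Leaving out 1 array gave 0 to 3 in wild type, 0 to 3 in mutant and 2 to 7 in untreated cells, and the difference of responses stayed at 0 members under every alternative run. With the sign turned as the labels' dyes give it, 1 called gene was lower in mutant cells and not 3. A replicate block left 2 members called in untreated cells (Fosl2 and Myc, 8.71%), but the numbers do not pair the treatment samples (correlation of deviations -0.046 over 29913 probes). A slide or extraction block was not run, since each array has a slide of its own.

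Fitted log2 values of the members and of the lists' genes turned sign as follows. Those with a dye term hold for the study's direction of the untreated arrays, and that of the labels was not fitted. With a dye term, the wild type response was -0.35 for Fos, -0.34 for Jun, -0.028 for Junb probe A_51_P159201, -0.27 for Jund and -0.050 for Ruvbl2. The mutant response was -0.56 for Fosb probe A_51_P138378, -0.25 for Junb probe A_51_P159201, -0.47 for Jund and -0.27 for Mxd1, and the untreated difference -0.36 for Fos and -0.55 for Fosb probe A_51_P138378. With marked spots kept too, the wild type response was -0.32 for Fos, 0.33 for Fosl2 probe A_52_P484903, -0.29 for Jun, -0.23 for Jund, 0.12 for Myc probe A_52_P278549, 0.031 for Fgf2 and -0.0019 for Ruvbl2. The mutant response was then -0.48 for Fosb probe A_51_P138378, 0.14 for Junb probe A_51_P159194, -0.17 for A_51_P159201, -0.46 for Jund and -0.22 for Mxd1, and the untreated difference -0.34 for Fos and -0.43 for Fosb probe A_51_P138378. In Cy3 the untreated difference was -0.25 for Fos, -0.34 for Fosb probe A_51_P138378 and 0.16 for Junb probe A_51_P159194. With median centring, the wild type response was 0.53 for Fosb probe A_52_P109010, 0.20 for Fosl2 probe A_52_P484903, 0.19 for Junb probe A_51_P159194 and 0.22 for Egr1. The mutant response was 0.27 for Fosl2 probe A_51_P507242, 1.12 for Junb probe A_51_P159194, 0.30, 0.17 and 0.14 for Myc probes A_51_P102096, A_52_P108346 and A_52_P278549, 0.49 for Mt2, 0.22 for Srf and 0.32 for Mxd3. The untreated difference was 0.13 for Fosb probe A_52_P109010, 0.14 for Junb probe A_51_P159201 and 0.0047 for Egr1, and the difference of responses 0.10 for Jund and 0.19 for Myc probe A_52_P278549. Normexp gave a mutant response of -0.0071 for Junb probe A_51_P159201 and a difference of responses of 0.0095 for Myc probe A_52_P278549, and the scanner's own ratios a mutant response of -0.0022 for Jund. Leaving out 1 array turned the sign within these ranges: the wild type response of Fos from -0.13 to 0.37 and of Egr1 from -0.68 to 0.11; the mutant response of Fos from -0.47 to 0.047, of Junb probe A_51_P159201 from -0.057 to 0.11, of Jund from -0.012 to 0.040 and of Myc probe A_51_P102096 from -0.45 to 0.049; the untreated difference of Fos from -0.18 to 0.28, of Fosb from -0.074 to 0.33 for A_51_P138378 and -0.82 to 0.21 for A_52_P109010, of Junb probe A_51_P159201 from -0.58 to 0.14 and of Ier3 from -0.89 to 0.27; and the difference of responses of Ier3 from -0.053 to 0.35.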
